A study of Mus musculus with 16 samples.

Results

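Genes for the endocytic receptors and surface or secreted proteins that mark tissue macrophages were followed across 4 treatment groups of mouse melanoma. The set held 10 of the 46078 genes counted: Mrc1, Cd163, Stab1, Msr1, Lyve1, Folr2, F13a1, Csf1r, Adgre1 and Lyz2. They were chosen by symbol, with no measured value in the rule, but with earlier results of these data known. Macrophages are phagocytes that settle in most tissues, where they take up dying cells, modified proteins and matrix fragments through scavenger receptors, a loose family of surface proteins defined by the breadth of what they bind. Survival of macrophages depends on signalling through Csf1r, the receptor for the growth factors CSF1 and IL-34. In mouse tumours, high levels of Mrc1, Cd163, Stab1, Lyve1 and Folr2 are commonly used to describe macrophages resembling those resident in healthy tissue, while Adgre1 and Lyz2 are read as general markers of the lineage. Not all of the 10 belong to macrophages alone: Lyve1 and Stab1 are also made by lymphatic or sinusoidal endothelium, F13a1 by megakaryocytes and Lyz2 by neutrophils.

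B16F10-GP melanoma cells had been implanted in Matrigel on a flank of C57BL/6 mice, female and aged 6 to 8 weeks, and RNA of the tumours was read after transcriptome capture, an enrichment of coding fragments by probes. There were 16 libraries, 4 in each group, all from that same model. Control mice, labelled untreated, had vehicle alone according to the protocol. The 5 Gy group was exposed on day 10 to 5 Gy of X-rays, right flank only, the QH-II-066 group had this compound intraperitoneally at 10 mg/kg daily over 7 days from day 10, and the combined group had the irradiation in the morning with the compound started that evening. QH-II-066 is known here by its code name only. Neither the flank sampled nor whether libraries of a group came from different animals was stated, so p-values measure only how far these samples spread, and that spread may be technical. The tumours were profiled whole, and so fewer cells of a type and less RNA per cell cannot be told apart in any result below.

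Total counts ran from 6994198 fragments in combined replicate 4 to 40799942 in combined replicate 1, and lay between 23035634 and 38114306 in the other groups. All 10 genes passed the filter on low counts that left 16101 genes for testing. Within groups, log2 CPM (counts scaled to library size with TMM factors) correlated at 0.899 to 0.985 between libraries. Log2 CPM, less each gene's mean, was also regressed on log2 exon length in each library, over genes with mean log2 CPM above 3. The slope averaged 0.068 ± 0.175 untreated, 0.109 ± 0.112 after 5 Gy, -0.088 ± 0.158 with QH-II-066 and -0.088 ± 0.120 combined (SD, n = 4). Its part in differences between genes of unlike length was not tested. Keratin and other skin epithelium transcripts were present in 5 libraries, namely 5 Gy replicates 2 and 4 and combined replicates 2, 3 and 4, whose skin scores (mean log2 CPM of 11 genes) were 4.27 to 7.65, against -0.14 or lower in the rest. Macrophage genes are expressed in skin as well as in tumours, so values of the 10 genes without these 5 libraries are given beside the results that rest on them. That leaves 2 libraries of the 5 Gy group and only replicate 1 of the combined group, whose single library is then assumed to vary like the others.

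The start sites of the genes were looked up in RefSeq (GRCm38.p6, the same assembly as mm10), and 6 of the 10 matched an entry, with 8 start sites in all: Mrc1, Cd163, Stab1, Folr2, F13a1 and Lyz2. The 250 bases before 4 of these starts are shown because those genes had the largest fold changes after radiation among the genes past the test, and they are written on the gene's own strand with motif matches in capitals. Mrc1 lies at chr2:14229164-14229413 on the plus strand, Cd163 at chr6:124304401-124304650 on the plus strand, Folr2 at chr7:101845332-101845581 on the minus strand and F13a1 at chr13:37050245-37050494 on the minus strand.
Mrc1: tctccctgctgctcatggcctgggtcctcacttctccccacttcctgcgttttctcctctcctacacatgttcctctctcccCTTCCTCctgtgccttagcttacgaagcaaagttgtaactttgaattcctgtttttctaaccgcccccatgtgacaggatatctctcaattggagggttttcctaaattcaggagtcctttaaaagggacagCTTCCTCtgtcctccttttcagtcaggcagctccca
Cd163: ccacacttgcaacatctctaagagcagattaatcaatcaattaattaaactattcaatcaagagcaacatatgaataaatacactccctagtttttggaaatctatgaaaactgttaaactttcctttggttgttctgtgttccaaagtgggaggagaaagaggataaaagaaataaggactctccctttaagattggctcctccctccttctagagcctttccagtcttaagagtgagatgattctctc
Folr2: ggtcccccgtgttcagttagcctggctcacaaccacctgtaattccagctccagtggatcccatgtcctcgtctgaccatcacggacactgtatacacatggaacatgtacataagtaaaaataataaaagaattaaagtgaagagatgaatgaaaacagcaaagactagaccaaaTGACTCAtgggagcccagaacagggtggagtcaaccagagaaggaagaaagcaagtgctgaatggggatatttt
F13a1: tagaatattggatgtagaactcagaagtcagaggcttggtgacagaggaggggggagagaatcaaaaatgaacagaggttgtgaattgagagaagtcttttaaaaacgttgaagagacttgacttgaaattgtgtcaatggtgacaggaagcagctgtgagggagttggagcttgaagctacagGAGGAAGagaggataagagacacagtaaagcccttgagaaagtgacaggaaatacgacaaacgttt

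Capitals mark matches to 3 motifs searched on both strands: GAGGAAG, a core bound by PU.1, the transcription factor that sets macrophage identity, TGANTCA, the site of AP-1, and TGCTGAC, part of the recognition element of MAF factors. The PU.1 core was found in 2 of the 8 windows. Mrc1 carried it on the opposite strand at bases 168 to 162 and again at bases 36 to 30 before the start, and F13a1 carried it on its own strand at bases 66 to 60. Of all 32851 RefSeq windows of this length, 10.6% held this core. The AP-1 site was in 1 of the 8 windows, that of Folr2 at bases 74 to 68 before the start, and in 6.75% of all windows. The MAF element was in none of the 8 and in 3.81% of all. The motifs did not overlap, and the Cd163 window held none of them.

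In untreated tumours the genes spanned a wide range of levels, here compared as CPM per kilobase of exon. That scaling allows for gene length but not for how well the capture probes recovered each gene, which was not measured. Lyz2, which encodes the lysozyme of myeloid cells, stood at 181 ± 61.7 CPM per kilobase (SD, n = 4) and lay above the other 9 genes in every library. A middle tier followed, in the order Adgre1 (the adhesion receptor F4/80, 9.87 ± 2.93), Folr2 (7.06), Csf1r (6.84), Msr1 (5.46), F13a1 (4.16) and Mrc1 (3.57), with each neighbour's libraries overlapping the next. Stab1 stood below Mrc1 without overlap at 2.86, and Lyve1 (0.595) and Cd163 (0.377) were lowest and overlapped each other. After 5 Gy the order changed below Lyz2 (441): Folr2 (41.0), F13a1 (25.8), Adgre1 (24.6), Csf1r (18.8) and Mrc1 (14.8) came next, followed without overlap by Msr1 (8.98), then by Stab1 (6.43), Cd163 (4.61) and Lyve1 (3.55). In the QH-II-066 and combined groups the order from Lyz2 to Stab1 was the same, with Folr2 second at 14.7 and 17.9 CPM per kilobase and Stab1 at 3.50 and 4.65. Lyve1 and Cd163 were lowest there too.

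**Figure D1:**
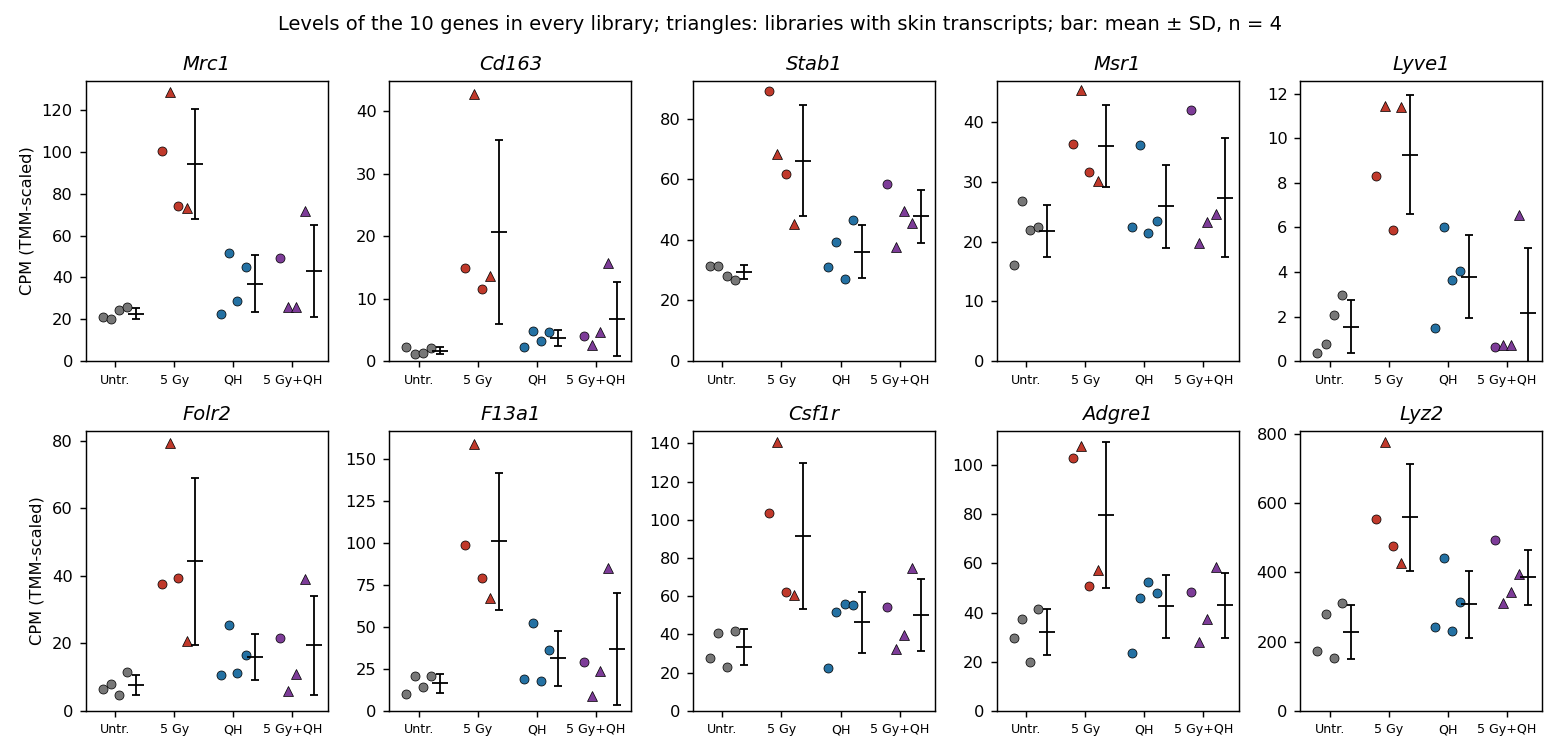
CPM (vertical axis, linear, starting at 0) of the 10 genes in each of the 16 libraries, 1 panel a gene; Untr. stands for untreated and QH for QH-II-066, points are libraries in the order of replicates 1 to 4, triangles are libraries with skin transcripts, and the bar beside each group is the mean ± SD (n = 4), cut at 0 for Lyve1 in the combined group. In each panel the 4 libraries of the 5 Gy group lie above the 4 untreated ones, while the QH-II-066 and combined groups overlap the untreated group for most genes.

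Irradiated and untreated tumours were compared first, to see how these transcripts stood after radiation alone. Higher levels were called for 6 of the 10 genes, Mrc1, Cd163, Stab1, Folr2, F13a1 and Lyz2, and for none lower, where 1.25% of all 16101 genes tested were called higher (edgeR quasi-likelihood test, Benjamini-Hochberg adjusted p under 0.05). The other 4 did not pass. Every one of the 10 had its 4 irradiated libraries above its 4 untreated libraries, which held for 5.97% of all genes, and all 10 had an unadjusted p under 0.05, which held for 12.3%. The median log2 fold change of the 10 was 1.75, with all 10 above 0, and the median of all genes was -0.08, with 38.2% above 0.

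Among the scavenger receptors, Mrc1, the mannose receptor that takes up glycoproteins bearing mannose and collagen fragments, read 21.1, 19.9, 24.2 and 25.8 CPM in the untreated libraries and 101, 128, 74.1 and 73.4 CPM after 5 Gy. The lowest irradiated library was far above the highest untreated one, and the fold change was 4.14 (log2 2.05 ± 0.33 SE, adjusted p = 0.0227). Cd163, the receptor for haptoglobin-haemoglobin complexes, went from 2.21, 1.15, 1.31 and 2.11 CPM to 14.98, 42.7, 11.5 and 13.7 CPM. This was the largest fold change of the 10, 12.2-fold (log2 3.61 ± 0.58, adjusted p = 0.0227), and replicate 2 stood well above the other irradiated libraries. Stab1, stabilin-1, clears modified lipoproteins and the matrix protein SPARC. It read 31.3, 31.5, 28.1 and 26.7 CPM in untreated tumours and 89.3, 68.3, 61.8 and 45.2 CPM after 5 Gy, which gave 1.17 ± 0.20 on the log2 scale at an adjusted p of 0.0232. Msr1, the class A receptor for acetylated lipoproteins, moved least, from 16.1 to 26.8 CPM untreated to 30.1 to 45.4 CPM, and did not pass the test (log2 0.72 ± 0.24, adjusted p = 0.133).

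Among the genes associated with resident macrophages, Folr2, a folate receptor, read 6.55, 7.81, 4.54 and 11.6 CPM in untreated tumours and 37.5, 79.2, 39.5 and 20.7 CPM after 5 Gy (log2 2.54 ± 0.54, adjusted p = 0.04). F13a1, the catalytic subunit of the clotting transglutaminase factor XIII, went from 9.79, 20.8, 13.97 and 20.8 CPM to 98.7, 159, 79.1 and 67.4 CPM (log2 2.63 ± 0.57, adjusted p = 0.0409). For both genes the groups stood apart, with replicate 4 the lowest of the irradiated libraries. Lyve1, a hyaluronan receptor, read 0.368, 0.769, 2.08 and 2.99 CPM untreated, from 11, 20, 65 and 85 counts, and 8.33, 11.4, 5.91 and 11.4 CPM after 5 Gy. Its fold change was large and uncertain (log2 2.57 ± 0.78, 2 SE to either side giving 1.02 to 4.13), and it did not pass (adjusted p = 0.0964).

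Of the lineage genes, Lyz2 rose from 172, 279.7, 153 and 310.3 CPM to 553, 777, 475 and 427 CPM (log2 1.29 ± 0.27, adjusted p = 0.0386). Csf1r went from 23.1 to 41.9 CPM untreated to 60.6 to 141 CPM, and Adgre1 from 19.8 to 41.4 CPM to 51.0 to 108 CPM. Both missed the threshold narrowly, Csf1r at log2 1.46 ± 0.35 (adjusted p = 0.0517) and Adgre1 at log2 1.32 ± 0.32 (adjusted p = 0.0539). Reads of Lyz2 are partly shared with its neighbouring copy Lyz1: 15.4% of the 50-base stretches of the longest Lyz2 transcript occur in Lyz1, which had 12 to 761 counts where Lyz2 had 2659 to 24788. Csf1r shares 871 exon bases with Hmgxb3 and Stab1 shares 109 with Nt5dc2, both on the opposite strand, and the counting used no strand.

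**Figure D2:**
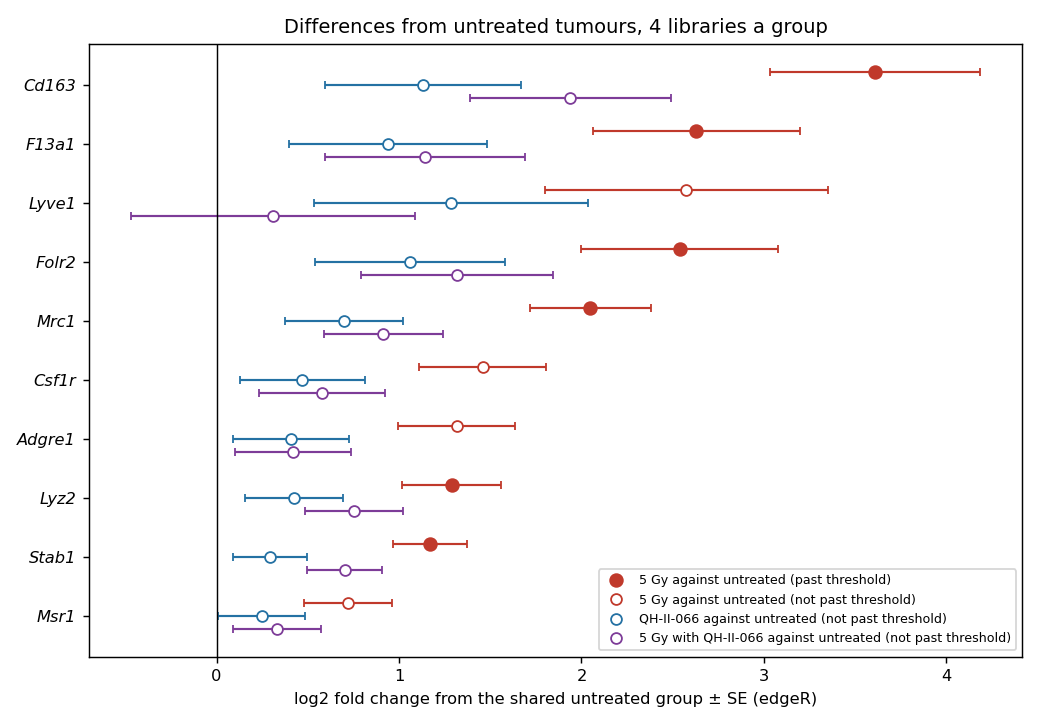
Log2 fold changes (horizontal axis, edgeR) of the 10 genes in the 5 Gy, QH-II-066 and combined groups against the shared untreated group, with bars of 1 SE to either side; filled points have an adjusted p under 0.05 and open points do not. The 6 filled points all belong to 5 Gy against untreated, and each gene's 5 Gy point lies to the right of its other points.

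The calls rested on particular libraries. Replicate 2 of the 5 Gy group, which held skin transcripts, had the highest value of all 16 libraries for 9 of the 10 genes, and replicate 4, which held them as well, was the lowest of its group for 7. Without replicate 2 none of the 10 passed, with log2 fold changes of 1.87 for Mrc1 and 2.99 for Cd163 at an adjusted p of 0.0856. The same held without untreated replicate 1, 2 or 3, where Mrc1 had an adjusted p of 0.0754, 0.0855 and 0.14, and in each of these 4 fits 0 genes were called in all. A setting chosen after the data had been seen, leaving out the 5 libraries with skin transcripts, kept 2 irradiated libraries and called 2 genes, Mrc1 (log2 1.94 ± 0.29, adjusted p = 0.0477) and Cd163 (2.96 ± 0.36, adjusted p = 0.0477), of 22 called among all genes. Stab1 stood at 1.36 (adjusted p = 0.0616), Folr2 at 2.34 (0.0661) and F13a1 at 2.44 (0.0814) in that fit. With a covariate for skeletal muscle content none of the 10 was called and 2 genes were in all, with a skin covariate only Stab1 was, and with DESeq2 all 10 were among 1224 genes in all. No fold change of the 10 in this comparison changed sign in any of the 19 other settings.

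**Figure D3:**
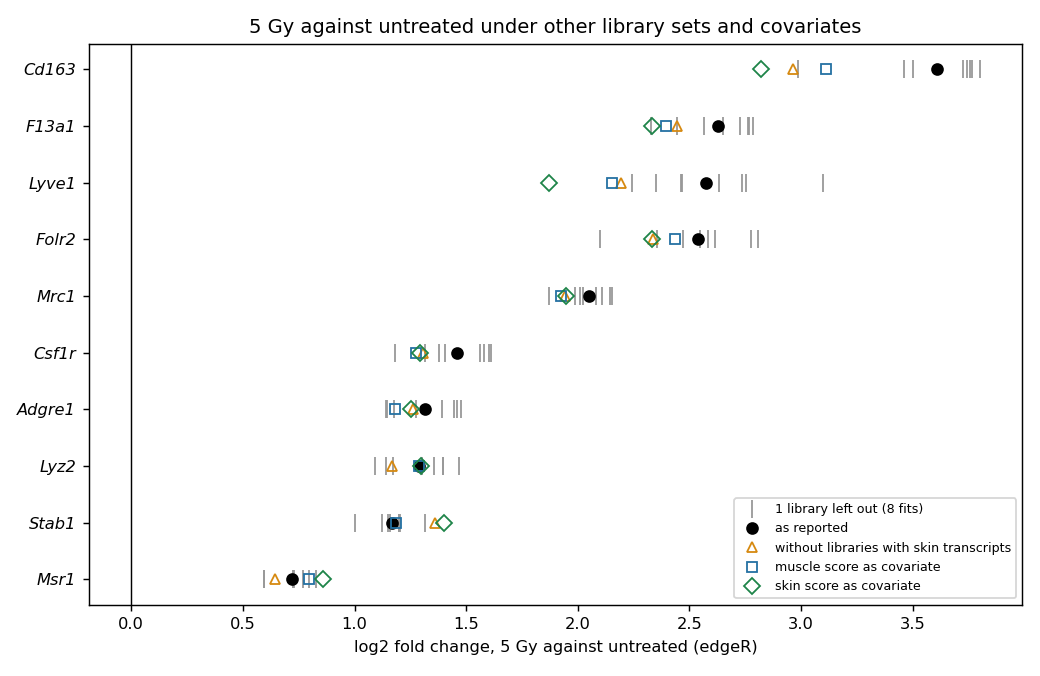
Log2 fold changes of the 10 genes for 5 Gy against untreated (horizontal axis, edgeR) as reported, with each of 8 libraries left out in turn (grey bars), with the skin-bearing libraries removed, or with a muscle or skin covariate. All values lie above 0, and Cd163 and Lyve1 move most between settings, down to 2.82 and 1.87 with the skin covariate.

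Transcripts of other cell types moved with the same contrast, and their part in the result was not tested. Fibroblast genes rose, with 9 of 10 called, a median log2 fold change of 2.34 and a summed level of 496 to 838 CPM untreated against 2001 to 4398 CPM after 5 Gy. The 7 adipocyte genes summed to 0.308 to 76.7 CPM untreated and 122 to 552 CPM after 5 Gy, and the mast cell genes to 0.320 to 6.61 and 4.95 to 41.8 CPM, with 0 called in either list. Skin epithelium genes summed to 4.03 to 5.78 and 3.77 to 3367 CPM, and skeletal muscle genes to 4.34 to 119 and 4.93 to 2604 CPM, also with 0 called. Cells that share members of the set were looked at too. Lymphatic endothelium, another source of Lyve1, summed to 36.1 to 40.1 CPM untreated and 40.4 to 45.2 CPM after 5 Gy, with 0 of 5 tested genes called and Ccl21a at 0 in both groups. Most of that sum was Pdpn (mean 26.2 and 29.2 CPM), while Mmrn1, at 0.112 and 1.22 CPM, differed by 3.39 ± 1.14 on the log2 scale (adjusted p = 0.134). Megakaryocyte genes, for F13a1, summed to 71.0 to 76.2 and 67.7 to 83.2 CPM, with 0 of 2 tested called and 5 of the 7 listed too low to test. Here Itgb3 made up most of the sum (71.5 and 73.8 CPM), and Itga2b read 0.783 and 1.37 CPM (0.80 ± 0.47, adjusted p = 0.478). These 4 genes were singled out after their values had been seen. Neutrophil genes, for Lyz2, summed to 3.97 to 8.31 CPM untreated and 11.4 to 13.9 CPM after 5 Gy. Of the 10 listed, 6 were tested and 0 called, and Ngp was at 0 in both groups. Csf3r, also singled out after its values had been seen, made up most of that sum (mean 4.60 and 8.05 CPM). It differed by 0.81 ± 0.39 on the log2 scale (edgeR, adjusted p = 0.34). Blood endothelium had 1 of 8 called, Tek, and summed to 96.3 to 162 CPM against 162 to 297 CPM.

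To ask whether the genes changed more than the macrophage lineage as a whole, each was read relative to a score of 20 general macrophage genes such as C1qa, Cd68 and Itgam (mean log2 CPM). That score was 5.42 ± 0.62 in untreated and 6.15 ± 0.39 in irradiated tumours (SD, n = 4 each), 0 of its 20 genes were called, and all 20 had fold changes above 0 with a median of 0.61. Relative to it, 8 of the 10 genes had all 4 irradiated libraries above all 4 untreated ones, against 1.79% of all genes. Mrc1 stood at -0.91 ± 0.63 untreated and 0.36 ± 0.03 after 5 Gy, F13a1 at -1.45 ± 0.40 and 0.43 ± 0.17, and Folr2 at -2.55 ± 0.17 and -0.85 ± 0.49. Cd163 went from -4.65 ± 0.70 to -1.99 ± 0.52. Lyz2, Csf1r, Adgre1 and Lyve1 were also separated, Adgre1 only just, with its highest untreated library at -0.204 and its lowest irradiated one at -0.202. The exceptions were Stab1, which overlapped (-0.54 ± 0.65 and -0.15 ± 0.36), and Msr1, whose means were level (-0.99 ± 0.55 and -1.004 ± 0.13). Read instead against the fibroblast score, 1 gene, Cd163, was separated upwards (0.0745% of all genes) and 5, Stab1, Msr1, Csf1r, Adgre1 and Lyz2, downwards (84.3% of all genes). A reading added after the data had been seen left out the skin-bearing libraries. The same 8 genes then stood above in the 2 remaining 5 Gy libraries (2.35% of all genes). Against the fibroblast score the same 1 and 5 genes were separated (0.13% and 91.1%). Genes separated with all 4 libraries stay separated with any 2 of them, so this reading could only add genes, and it added none. No gene was separated from untreated tumours, relative to the macrophage score, in the QH-II-066 group (0.211% of all genes higher) or the combined group (0.708%), where the 1 library with a skin score under 0 gives no spread.

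**Figure D4:**
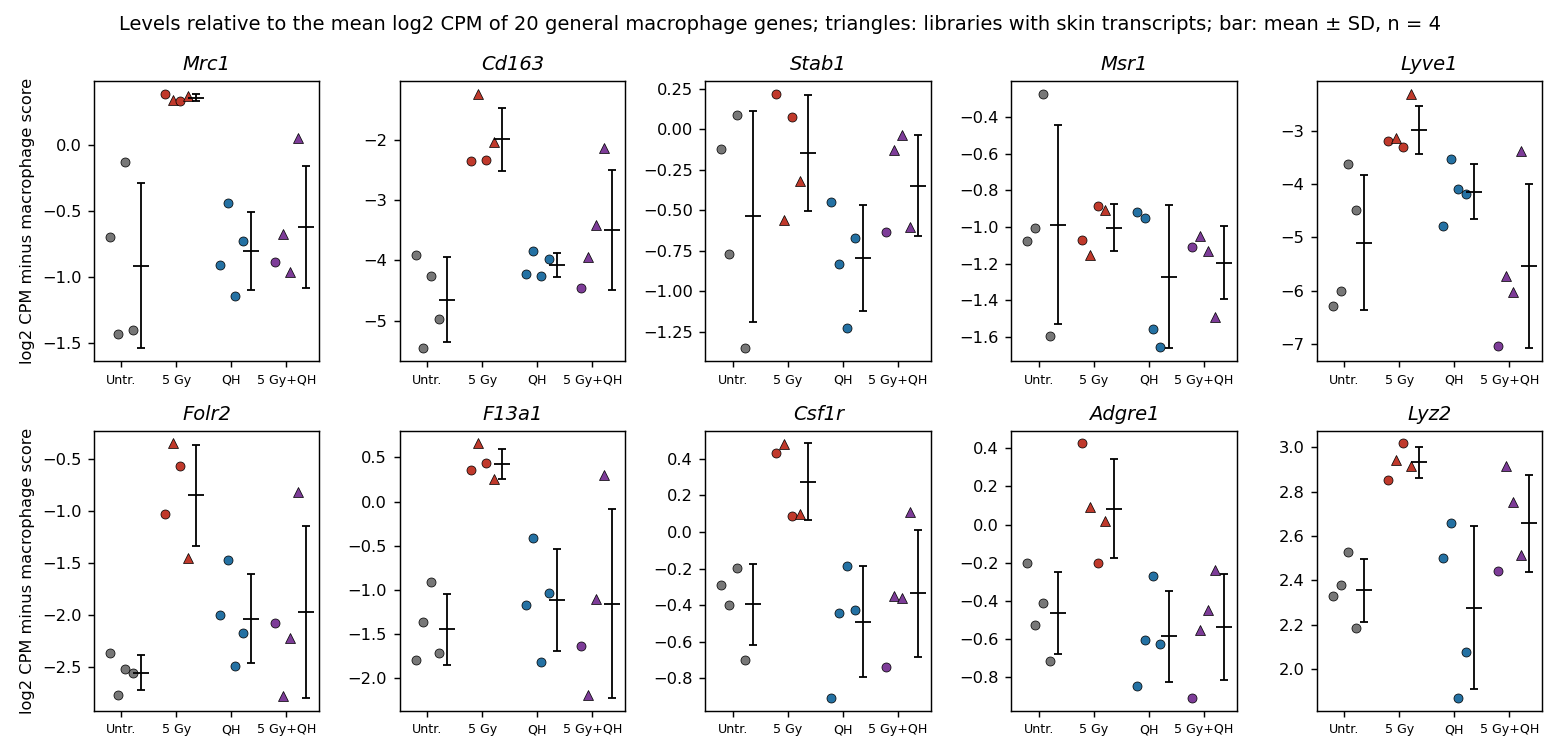
Log2 CPM of each gene minus the mean log2 CPM of 20 general macrophage genes (vertical axis, log2 difference, its range set for each panel) in the 16 libraries; triangles are libraries with skin transcripts and the bar beside each group is the mean ± SD (n = 4). For 8 genes the 5 Gy points lie above all untreated points, Adgre1 by the smallest margin, and for Stab1 and Msr1 the groups overlap.

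Related genes gave further detail on the same contrast. Of the tissue-resident macrophage list, 6 of 16 were called higher (median log2 fold change 2.03): the 4 with the smallest adjusted p were Gas6, a bridging ligand for uptake of dying cells (8.88 to 74.1 CPM, log2 3.06 ± 0.48), Igf1 (5.40 to 24.3 CPM, 2.17 ± 0.42), the prostaglandin-degrading enzyme gene Hpgd (0.520 to 4.71 CPM, 3.17 ± 0.63) and Cbr2, a carbonyl reductase (8.60 to 52.8 CPM, 2.62 ± 0.56). Some of these, Gas6 and Igf1 among them, are also made by fibroblasts. Of the other scavenger and endocytic receptors, 2 of the 23 tested were called, Colec12 (3.50 to 11.4 CPM, 1.71 ± 0.38) and Scara3 (1.06 to 8.72 CPM, 3.03 ± 0.71), and the list's median was 1.48 with 22 above 0. Of the growth factor axis and transcription factors 3 of 15 were called (median 0.52), Tfec (1.58 ± 0.30), Csf2rb, the common chain of the GM-CSF receptor (7.22 to 16.7 CPM, 1.21 ± 0.23) and Il34, a ligand of Csf1r (1.16 to 5.39 CPM, 2.21 ± 0.45, adjusted p = 0.0339). Csf1, the other ligand, looked up after the values had been seen, read 30.0 CPM untreated and 39.1 CPM after 5 Gy and did not pass (0.38 ± 0.19, adjusted p = 0.354). For these listed genes, Il34 included, no values without the skin-bearing libraries are given, and the part of skin in them was not tested.

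The remaining myeloid lists were read in the same way. Of the general macrophage genes, Cd14 (log2 1.26 ± 0.31, adjusted p = 0.056) and Fcgr3 (0.99 ± 0.25, adjusted p = 0.0584) came nearest to the threshold. Monocyte genes had 1 of 10 called, Vcan (1.98 ± 0.44, adjusted p = 0.0429), a proteoglycan that fibroblasts secrete too, with a median of 0.93. TREM2 and lipid-associated genes, typical of foamy macrophages, had 0 of 10 called and a median of 0.43, led by Cd9 (0.62 ± 0.20, adjusted p = 0.124) and Lpl (1.48 ± 0.64, adjusted p = 0.275). Dendritic cells had 1 of 8 called.

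The comparison of QH-II-066 with untreated tumours asked what the compound did alone. edgeR called 0 of the 10 genes and 0% of all genes, DESeq2 called 0 of the 10 and 16 genes in all, and limma-voom with sample weights called 6 of the 10 together with 4622 of all genes. All 10 had fold changes above 0, as did 51.6% of all genes, with a median of 0.59 against 0.01 for all genes, and 1, Mrc1, had an unadjusted p under 0.05, as did 3.14% of all genes on the higher side. Mrc1 read 22.7, 51.6, 28.6 and 45.0 CPM, so replicates 2, 3 and 4 lay above every untreated library and replicate 1 lay among them (log2 0.70 ± 0.32, adjusted p = 0.546). Cd163, at 2.21, 4.78, 3.23 and 4.67 CPM, was the only gene whose groups did not overlap, by a margin within the rounding of its values (1.13 ± 0.54, adjusted p = 0.546), and 1.37% of all genes were so separated upwards. Stab1 (31.2, 39.3, 27.0 and 46.7 CPM) and Msr1 (21.4 to 36.1 CPM) overlapped the untreated libraries.

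Folr2 read 10.6, 25.3, 11.2 and 16.4 CPM with the compound and F13a1 18.8, 52.4, 17.9 and 36.2 CPM, giving log2 differences of 1.06 ± 0.52 and 0.94 ± 0.54. Lyve1 read 1.48, 6.01, 3.64 and 4.03 CPM (1.29 ± 0.75). Lyz2 read 241, 442, 231 and 314 CPM (0.43 ± 0.27), and Csf1r (22.7 to 55.7 CPM, 0.47 ± 0.34) and Adgre1 (23.7 to 52.4 CPM, 0.41 ± 0.32) overlapped the untreated groups. Adjusted p over the 10 was 0.546 to 0.642. Replicate 2 was the highest of the group for 7 of the 10 genes and replicate 1 the lowest for 6. Without replicate 2, Lyz2 stood at 0.20, F13a1 at 0.57 and Msr1 at 0.042, each smaller by more than 1.5 times, and the median of the 10 was 0.46 with all 10 above 0. Stab1 was 0.14 without replicate 4, and Adgre1 was 0.24 without untreated replicate 3. The skeletal muscle scores of these libraries ran from -1.89 to 6.71, highest in replicate 4. With that score as a covariate all 10 stayed above 0, with a median of 0.57 (edgeR, adjusted p from 0.521 to 0.647). What part muscle content played was not otherwise tested.

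In the combined group against untreated tumours, edgeR again called 0 of the 10 genes and 0% of all genes, with DESeq2 calling 1, Cd163 (log2 2.003, adjusted p = 0.0248), among 200 genes in all, and limma-voom 0 of the 10 and 0 in all. At an unadjusted p under 0.05, 5 of the 10 were higher, Mrc1, Cd163, Stab1, Folr2 and Lyz2, as were 7.44% of all genes. All 10 fold changes were above 0 (49.7% of all genes), with a median of 0.73 against -0.00. Cd163 (4.06, 2.59, 4.72 and 15.6 CPM, log2 1.94 ± 0.55) and Stab1 (58.5, 37.5, 49.6 and 45.6 CPM, 0.70 ± 0.20) did not overlap the untreated libraries, as was so upwards for 2.53% of all genes, and both had an adjusted p of 0.298. Mrc1 read 49.2, 25.7, 26.1 and 71.7 CPM (0.91 ± 0.33), where replicates 2 and 3 were level with the highest untreated library. Lyz2 read 492, 310.1, 344 and 396 CPM (0.75 ± 0.27) and Folr2 21.5, 5.92, 10.9 and 39.1 CPM (1.32 ± 0.53).

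The combined libraries differed widely among themselves. F13a1 read 29.2, 8.90, 23.6 and 85.1 CPM (log2 1.14 ± 0.55), and Lyve1 0.622, 0.705, 0.716 and 6.55 CPM from 23, 18, 24 and 44 counts (0.31 ± 0.78). Replicate 4, the shallowest library and one with skin transcripts, was the highest of the group for 7 of the 10 genes, and replicate 2, with skin transcripts too, was the lowest for 9. Without replicate 4, the log2 difference from untreated was 0.34 for F13a1, 0.75 for Folr2, 1.16 for Cd163, 0.56 for Mrc1, 0.33 for Csf1r and 0.24 for Adgre1, and it was -1.19 for Lyve1, so that 9 of the 10 were above 0. Msr1 was 0.039 without replicate 1. Lyve1 was -0.017 without untreated replicate 1. Set against untreated tumours with the skin-bearing libraries left out, replicate 1 alone gave a median of 0.97, with Lyve1 at -1.31 and the other 9 above 0 and adjusted p from 0.28 to 0.457. Msr1 (19.8 to 41.9 CPM, 0.33 ± 0.24), Csf1r (32.1 to 74.6 CPM, 0.58 ± 0.34) and Adgre1 (27.9 to 58.5 CPM, 0.42 ± 0.32) overlapped the untreated libraries. The 3 comparisons above share the same 4 untreated libraries.

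Set against 5 Gy alone, the combined group asked what the compound added to radiation. edgeR called 0 of the 10 and 0% of all genes, DESeq2 0 with 123 genes in all, and limma-voom 4 (Mrc1, Cd163, Lyve1 and F13a1) with 84. All 10 fold changes were below 0, with a median of -1.02 against -0.06 over all genes, of which 44.3% lay above 0. At an unadjusted p under 0.05, 8 of the 10 were lower, the exceptions being Msr1 and Lyz2, as were 7.9% of all genes. Mrc1, whose highest combined library (71.7 CPM) was just below its lowest irradiated one (73.4 CPM), was the only gene without overlap (3.97% of all genes, lower), at a log2 difference of -1.14 ± 0.33 (2 SE to either side -1.79 to -0.48, adjusted p = 0.209). Cd163 differed by -1.67 ± 0.53, Lyve1 by -2.26 ± 0.79, F13a1 by -1.49 ± 0.55 and Folr2 by -1.22 ± 0.52. The lineage genes differed by less, Csf1r by -0.88 ± 0.35, Adgre1 by -0.90 ± 0.32 and Lyz2 by -0.53 ± 0.27. So did Stab1 (-0.47 ± 0.20) and Msr1 (-0.39 ± 0.24). Mean gene length slopes were 0.109 after 5 Gy and -0.088 in the combined group, and their part in these contrasts was not tested. Adjusted p over the 10 was 0.209 to 0.344. Single libraries moved these values: without combined replicate 4 Lyve1 stood at -3.76 and F13a1 at -2.29, without 5 Gy replicate 2 Cd163 at -1.02, Folr2 at -0.76, Csf1r at -0.58, Lyz2 at -0.33 and Msr1 at -0.25, without 5 Gy replicate 1 Stab1 at -0.29, and without combined replicate 1 Msr1 at -0.68. In each of these fits all 10 were below 0. Skin transcripts were in 2 of the 4 irradiated and 3 of the 4 combined libraries, and without them 9 of the 10 were below 0, with a median of -0.75 and Msr1 at 0.31, on 1 combined library (adjusted p from 0.422 to 0.957).

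Set against QH-II-066 alone, the combined group asked what radiation added to the compound. edgeR, DESeq2 and limma-voom called 0 of the 10, edgeR called 0% of all genes and DESeq2 48, and 0 of the 10 had an unadjusted p under 0.05, as did 3.65% of all genes in either direction. The median log2 difference of the 10 was 0.21 against -0.02 for all genes, and 9 of the 10 lay above 0, as did 46.7% of all genes. The intervals were wide: 2 SE to either side of the estimate gave -0.43 to 0.86 for Mrc1 and -0.26 to 1.87 for Cd163, while Stab1 lay between 0.00 and 0.81 and Lyz2 between -0.21 and 0.86. Lyve1 was the exception in direction (-0.98 ± 0.77). The count above 0 rested on combined replicate 4: without it 4 of the 10 were above 0, Cd163, Stab1, Msr1 and Lyz2, with a median of -0.14, and limma-voom with sample weights had 2 above 0, Stab1 and Lyz2. Without the skin-bearing libraries, on 1 combined library, 8 of the 10 were above 0, with F13a1 (-0.10) and Lyve1 (-2.60) below.

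The interaction, the difference made by radiation with the compound minus that made by radiation without it, was below 0 for all 10 genes, with a median of -1.59 against 0.03 for all genes, of which 54.5% lay above 0. edgeR called 0 of the 10 and 0% of all genes. At an unadjusted p under 0.05, 9 of the 10 were negative, all but Msr1, as were 5.4% of all genes. DESeq2 called 1, Mrc1 (log2 -1.83, adjusted p = 0.0406), among 59 genes in all, and limma-voom with sample weights 7 of the 10 with 492 of all genes. The edgeR estimate for Mrc1 was -1.84 ± 0.46 (adjusted p = 0.471), for Cd163 -2.80 ± 0.76, for Lyve1 -3.55 ± 1.09, for F13a1 -2.43 ± 0.77 and for Folr2 -2.28 ± 0.73. Csf1r stood at -1.35 ± 0.49, Adgre1 at -1.31 ± 0.45, Lyz2 at -0.96 ± 0.38 and Stab1 at -0.76 ± 0.29. Without the skin-bearing libraries, again with 1 combined library, the median was -1.31, 9 of the 10 were below 0 and Msr1 was at 0.052 (adjusted p from 0.934 to 0.984). The interaction uses the same libraries as the comparisons above, so it is not separate evidence.

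The related lists stood as follows in the comparisons other than 5 Gy against untreated, where edgeR called none of their genes. The tissue-resident macrophage genes had median log2 differences from untreated of 1.36 with QH-II-066, of 1.09 in the combined group, and of -0.60 for combined against 5 Gy, and the interaction had a median of -2.19. The other scavenger receptors had medians of 0.88, 0.86, -0.68 and -1.44 in that order, the growth factor axis and transcription factors 0.40, 0.33, -0.49 and -0.61, and the general macrophage genes 0.48, 0.43, -0.23 and -0.66. Monocyte genes stood at 0.42, 0.55, -0.26 and -0.67. The TREM2 and lipid-associated genes were at 0.24, 0.48, 0.30 and 0.02. Among these related lists, theirs was the only median above 0 for combined against 5 Gy. Medians of the neutrophil genes (0.32, 6 tested) and megakaryocyte genes (0.24, 2 tested) were above 0 there too. The TREM2 and lipid-associated list summed to a median of 9927 CPM in untreated tumours, against 1774 CPM for the general macrophage genes. Melanoma genes had a median of 0.39 for combined against 5 Gy, with 5 of 7 above 0. Whether cells other than macrophages contributed to the list was not tested. Csf2rb had the smallest p of the growth factor axis list in that comparison (log2 -0.94 ± 0.23, adjusted p = 0.209) and in the interaction (-1.49 ± 0.33, adjusted p = 0.445).

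The 10 genes followed each other across the 16 libraries to different degrees. Pearson correlation of log2 CPM with the mean of the 10 standardised profiles, a mean that contains the gene itself, was 0.974 for Mrc1, 0.967 for Folr2, 0.964 for F13a1, 0.947 for Csf1r, 0.936 for Cd163, 0.926 for Adgre1 and 0.924 for Lyz2. It was lower for Stab1 (0.842), Msr1 (0.831) and Lyve1 (0.772). Among 11873 other genes whose mean log2 CPM was 1 or more, the 10 most like that mean over the 16 libraries were Prrx1 (r = 0.969), Cd34 (0.968), Rab11fip5 (0.967), Bicc1 (0.965), Slit3 (0.957), Nxpe5 (0.956), Pdgfra (0.956), Rnase4 (0.955), Emilin2 (0.955) and Vcan (0.953). Prrx1, a transcription factor of mesenchymal cells, and Pdgfra, a growth factor receptor of fibroblasts, are not macrophage genes. With each group's mean removed, the correlations were 0.857 to 0.967. These are descriptions over 16 libraries that share groups, depth and tissue content.

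In the mm10 build the positions of the genes were as follows. Mrc1 (ENSMUSG00000026712) spans 14229392 to 14332057 on the plus strand of chromosome 2, and Cd163 (ENSMUSG00000008845) 124304651 to 124330527 on the plus strand of chromosome 6. Stab1 (ENSMUSG00000042286) spans 31139013 to 31168641 on chromosome 14 and Msr1 (ENSMUSG00000025044) 39581700 to 39642678 on chromosome 8, both minus. On chromosome 7, Folr2 (ENSMUSG00000032725) spans 101839990 to 101845331 and Lyve1 (ENSMUSG00000030787) 110850607 to 110862953, both minus. F13a1 (ENSMUSG00000039109) spans 36867178 to 37050244 on the minus strand of chromosome 13, Adgre1 (ENSMUSG00000004730) 57358686 to 57483529 on the plus strand of chromosome 17 and Lyz2 (ENSMUSG00000069516) 117277334 to 117282274 on the minus strand of chromosome 10. Csf1r is ENSMUSG00000024621.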

How the data were processed

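RNA sequencing counts of 16 tumour libraries were used. The deposited table holds raw counts per gene, without any normalization, which featureCounts 1.6.0 made from read pairs with no strand option, per the file headers. The submitters' processing notes also name STAR 2.4.1a, edgeR and the build mm10. The exon length in bases that the authors deposited beside the counts was used for CPM per kilobase.

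From these counts, edgeR 4.0.16 (R 4.3.3) was run, after filterByExpr and TMM scaling, with its quasi-likelihood test (robust) on 1 model of group means over the 16 libraries. Tests were two-sided, with Benjamini-Hochberg adjustment over 16101 genes and a threshold of 0.05. The SE of an edgeR fold change was its absolute log2 value divided by the square root of the test's F statistic. A range of 2 SE can leave out 0 although the unadjusted p is above 0.05, as for Stab1 in combined against QH-II-066. Log2 CPM used a prior count of 2. A count under 3 corresponds to 0.0735 to 0.429 CPM by library, for counting error only. No 2 libraries of a group agreed within sampling noise. The code was tested on simulated data.

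The members, gene lists and tests were chosen with earlier results of these data known. All members were named, and from each list up to 4 genes past the threshold by smallest adjusted p, or 2 where none passed. Settings varied were RLE scaling, DESeq2 1.42.0, limma-voom (limma 3.58.1), filters, replicate block, muscle covariate, threshold, compared groups alone and each library left out. Leaving out libraries with skin transcripts, and a skin covariate, were chosen after seeing the data. The Langerhans cell list had 1 of 2 genes tested and 0 called, and the melanoma list 0 of 7. Promoter windows came from RefSeq.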

Additional observations from a re-analysis of the deposited data

Results flagged for a closer look

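Within groups of 4 libraries, a single library stood far from the other 3 in 5 of the 40 combinations of gene and group examined. Its gap to the nearest library in CPM, as a share of the group's range, passed Dixon's critical value for 4 samples. For independent groups of normally distributed values, chance does so in about 1 of 20. CPM values on this linear scale need not be normal, and the 40 combinations share 16 libraries. The 5 flags therefore cannot be set against that rate. Cd163 stood at 42.7 CPM in 5 Gy replicate 2, where the next library had 14.98 CPM (share 0.890), and at 15.6 CPM in combined replicate 4, where the next had 4.72 CPM (0.837). Lyve1 stood at 6.55 CPM in combined replicate 4 against 0.716 CPM (0.984). These libraries held skin transcripts, whose part was not tested. Msr1 was high in QH-II-066 replicate 2, at 36.1 against 23.5 CPM (0.858), and Csf1r was low in QH-II-066 replicate 1, at 22.7 against 51.5 CPM (0.873), and those libraries had skin scores under 0.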

How the results depend on the processing

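Of 1210 values of the 10 genes under other settings, 1098 kept their direction and side of the threshold, 34 changed direction, 45 lost the threshold and 33 gained it; the cause of each was not tested. For 5 Gy against untreated, the 6 genes called became 10 with DESeq2, 0 with the muscle covariate, 2 when the 5 skin-bearing libraries were left out, 1 with the skin covariate (Stab1, log2 1.40), and 9 at an adjusted p under 0.1. limma-voom called 9, and 790 genes in all where edgeR called 203, DESeq2 1224, the muscle covariate 2, the skin covariate 14 and the threshold of 0.1 788. Leaving out 1 library gave 0 to 8, with 0 (and 0 genes in all) without 5 Gy replicate 2 or untreated replicate 1, 2 or 3, 4 without untreated replicate 4 (136 in all) and 8 without 5 Gy replicate 3 (739). No filter gave 4, of 180 called among 28869. The replicate block gave 6. Same-numbered libraries correlated at -0.426 to 0.484 (median 0.0989), and 4 of 16 correlated best with their own number. Differently numbered libraries of different groups correlated at -0.666 to 0.692 (median -0.0395). These values show no clear pairing by number and cannot exclude it. The block called 154 genes in all.

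In the other comparisons, DESeq2 called 1 of the 10 for the combined group against untreated (200 genes in all) and 1 in the interaction (59), and limma-voom called 6 for QH-II-066 against untreated (4622), 4 for combined against 5 Gy (84) and 7 in the interaction (492). Leaving out any library gave 0 to 0. The fit of compared groups alone does not apply to the interaction. No setting moved the median of all genes by over 0.1.

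Direction changed mainly for combined against QH-II-066. There limma-voom gave Mrc1 -0.59, Cd163 -0.094, Msr1 -0.21, Folr2 -0.83, F13a1 -0.995, Csf1r -0.36 and Adgre1 -0.34. Adgre1 was -0.020 with no filter and -0.0071 with the replicate block. The muscle covariate gave F13a1 -0.045 and Adgre1 -0.061, the skin covariate Cd163 -0.14, F13a1 -0.19, Csf1r -0.077 and Adgre1 -0.062, and leaving out skin libraries F13a1 -0.10. Leaving out 1 library, Mrc1 lay from -0.14 to 0.41, Msr1 from -0.21 to 0.28, Folr2 from -0.31 to 0.57, F13a1 from -0.60 to 0.57, Csf1r from -0.14 to 0.27 and Adgre1 from -0.19 to 0.16. Lyve1 in combined against untreated was -0.0064 with limma-voom, -0.25 with the muscle covariate, -0.82 with the skin covariate, -1.31 without skin libraries and -1.19 to 0.83 leaving out 1 library. Without skin libraries Msr1 was 0.31 in combined against 5 Gy and 0.052 in the interaction. The values without skin libraries rest on 1 combined library. Lyve1 had 11 to 365 counts a library.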
